A study of Rattus norvegicus with 6 samples.

Results

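Transcripts of 10 heat shock chaperone genes were described in liver RNA from 3 HFD and 3 HTG animals. The genes were the cytosolic HSP70 genes Hspa1a, Hspa1b and Hspa8, the HSP110 gene Hsph1, the HSP90 gene Hsp90aa1, the HSP40 gene Dnajb1, the small heat shock protein gene Hspb1, the co-chaperone gene Bag3, and the mitochondrial chaperonin genes Hspd1 and Hspe1. They were taken by symbol from a table of 32930 genes, each symbol stood on 1 row, and all 10 were among the 18455 genes that passed the filter on low counts.

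The HFD group was fed a high-fat diet and given 0.5% CMC-Na, the vehicle. The HTG group was fed the same diet and given HTG, the Huazhuo Tiaozhi granule, a herbal preparation, so both groups carried the diet and no group on a normal diet was analysed here. The intervention lasted 12 weeks by the labels, whose treatment field spells the preparation HCG in the HTG group. For its rats, the study describes 12 weeks of diet with gavage only in the later part. Ages were not given in the labels. The labels name rats, the study's RNA sequencing methods name C57BL/6 J mice, and the Ensembl identifiers in the table are those of mouse genes. The rows were therefore read as mouse genes, and the species of the animals is left as each source states it.

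Heat shock proteins bind unfolded or partly folded proteins and help them fold, or pass them on for degradation. HSP70 proteins work in cycles of ATP hydrolysis with HSP40 partners that bring substrates and with nucleotide exchange factors that release them, HSP90 takes over substrates at a later stage, and the mitochondrial chaperonin encloses proteins inside a chamber closed by a lid. Many of these genes are switched on by heat shock factor 1 (HSF1), which binds repeated GAA units in their promoters, and liver cells, with their high protein synthesis, keep the constitutive members at high levels.

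Estimated counts summed to between 50648778 and 90563477 per library. Among the lowest values, 4 counts (6450 entries) and 8 counts (3333 entries) were more frequent than the values beside them (2549 entries of 3 counts, 1757 of 5 and 1521 of 7), although 1 and 2 counts were also common (5104 and 4229 entries). A whole fragment was therefore assumed to be worth 4 counts, and under that assumption the limit of an empty gene was 3 fragments, or 12 counts (between 0.123 and 0.256 CPM). CPM are counts scaled to the total of each library after TMM adjustment. The lowest value of any of the 10 genes was 122 counts, for Hspa1a in HTG library 3. Messenger RNA from the mitochondrial chromosome took between 4.82% and 6.31% of the counts in the HFD libraries and between 9.12% and 14.9% in the HTG libraries. The 6 hepatocyte markers summed to between 75778 and 89711 CPM in HFD and to between 66823 and 69011 CPM in HTG, so both sums separated the groups, and their part in the results below was not tested. The hepatocyte sum was mostly Alb, with means of 66149 CPM in HFD and 54379 CPM in HTG. Of the 6 markers, 2, Alb and Cps1, were lower in HTG without overlap, and the others overlapped between the groups. In whole liver, fewer cells of a type and less RNA per cell cannot be told apart.

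The promoters are shown first because most of these genes are known targets of HSF1. RefSeq promoters of the rat genome GRCr8, running from 250 bases before to 50 bases after the start of each gene, were found for 8 of the 10 genes, with Hspa1b and Hsp90aa1 unmatched. A paired HSF1 unit was searched as TTCNNGAA or GAANNTTC, which each read the same on both strands, and overlapping matches were joined into runs. At least 1 match was found in 7 of the 8 windows, against 15.85% of 33469 rat windows of the same length, and 4 of the 8 held a run of 3 or more units, against 0.7978% of all windows. Hspa1a held none, which says only that these letters are not in that window. The Hspd1 and Hspe1 genes stand head to head with starts 289 bases apart, and their windows overlap by 211 bases. They share 1 run of 4 units, within the stretch chr9:64084256-64084285, so this run counts for both genes in the 7 and the 4 above. Its edge farther from each start lies 242 bases before the Hspd1 start and 65 bases before the Hspe1 start. Runs of 4 units were found in 0.04781% of all windows. The stretches of Hspd1 and Hspe1 below hold this shared run, read on the minus and the plus strand. Those of Hsph1 (chr12:10427324-10427353, plus strand) and Bag3 (chr1:192533317-192533346, plus strand) show a run of 3 units and a single match for comparison. Capitals mark the matching units, each line reads 5′ to 3′, and the sequences are of the rat while the rows measured carry mouse identifiers.
Hspd1: ggggccTTCCGGAAGGTTCTAGAAccgagc
Hspe1: gctcggTTCTAGAACCTTCCGGAAggcccc
Hsph1: gccgcagaTTCTGGAAAGTTCtcctcagta
Bag3: ggatgggaccaGAAGTTTCtagccggccag

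Across the 10 genes, no gene passed an adjusted p of 0.05 between HTG and HFD, and 3 were lower in HTG at an unadjusted p under 0.05, namely Hspd1, Hspa1b and Bag3. The quasi-likelihood test of edgeR was used, with the adjustment of Benjamini and Hochberg over all 18455 genes, and in it 12.4% of genes were lower at that unadjusted threshold. No member was higher at it, against 12.3% of all genes. An adjusted p under 0.1 with a lower level was found for 1 member, Hspd1, against 5.43% of all genes, while 0.0108% of all genes passed an adjusted p of 0.05. The CPM of the groups did not overlap, with HTG lower, for 2 members, Hspd1 and Hspa8, against 15.5% of all genes. DESeq2, run as an alternative, put 1 of the 10, Hspd1, past an adjusted p of 0.05 (adjusted p = 0.000435), but it put 2401 of all genes past it as well. The log2 fold change was negative for 8 of the 10, with a median of -0.54, beside 0.025 over all genes tested. The median was -0.34 without HFD library 2 and -0.35 without HTG library 2. The count of 3 rested on the libraries. It was 1 when HFD library 2, HTG library 2 or HTG library 3 was left out. The shares of all genes that were lower were then 9.72%, 8.09% and 8.70%. The count was 7 without HTG library 1, where 14.8% of all genes were lower. The background also depended on which genes were tested. Limma on log2(FPKM + 0.1), run as an alternative, tested 10930 genes after a filter on FPKM. In it 4 of the 10 were lower at an unadjusted p under 0.05, against 19.1% of those 10930 genes. The median log2 fold change there was -0.58 for the 10 and -0.068 for the 10930.

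**Figure D1:**
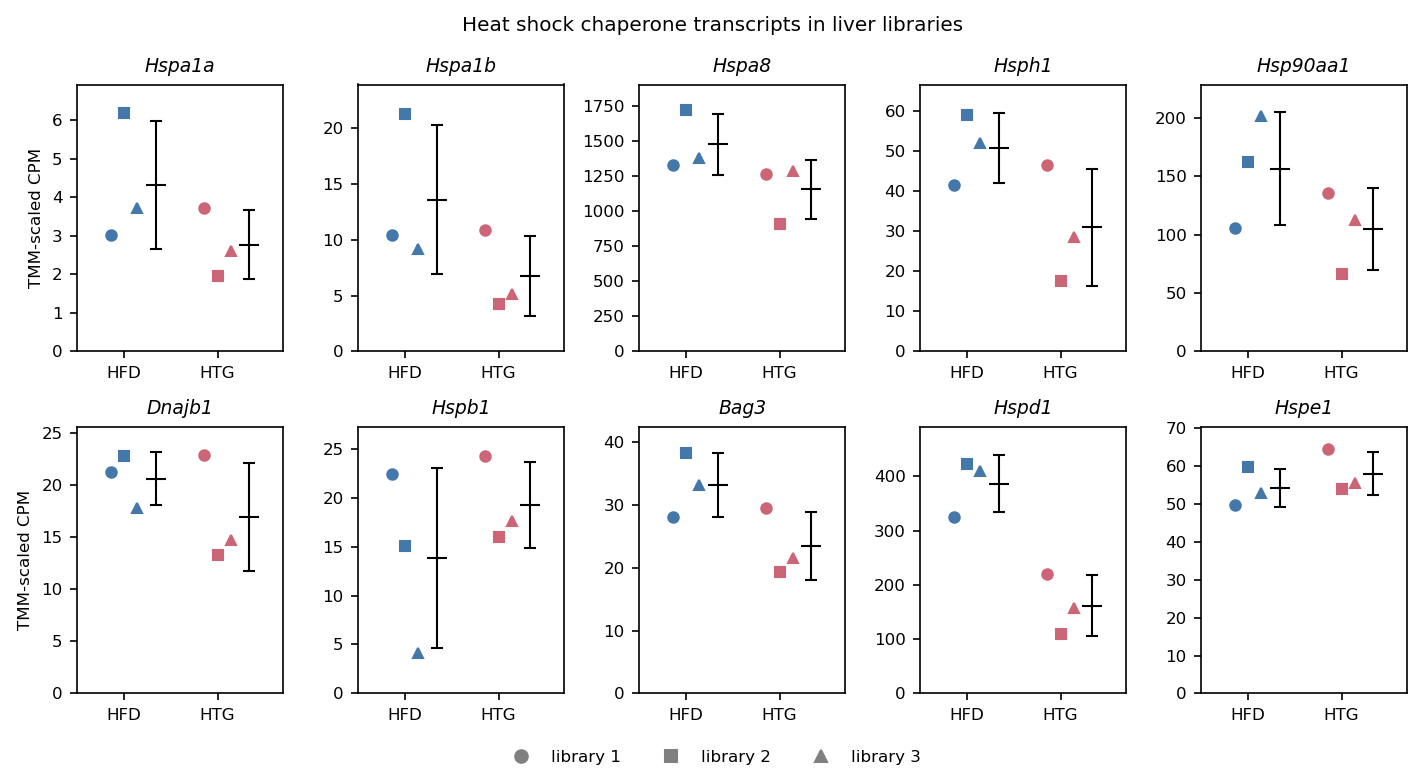
TMM-scaled CPM of each chaperone gene (vertical axis, linear and starting at 0) in the 3 HFD and 3 HTG libraries, with symbols for the library number and the black bar giving mean ± SD of the 3. Hspd1 lies between 326 and 422 CPM in HFD and between 109 and 220 CPM in HTG, whereas Hspe1 lies between 49.8 and 64.5 CPM in all 6 libraries.

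The 2 mitochondrial chaperonin genes had the largest and the smallest log2 fold change, in size, of the 10. Hspd1 encodes HSP60, the barrel of the chaperonin, and Hspe1 encodes HSP10, its lid. In the table's mouse coordinates, whose build is not given in the sources used here, Hspd1 (ENSMUSG00000025980) spans chr1:55116994-55127402 on the minus strand and Hspe1 (ENSMUSG00000073676) spans chr1:55127291-55130466 on the plus strand. The ends at which they start therefore overlap by 112 bases, whereas the 289 bases between starts given above are those of the rat windows.

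Hspd1 had 22178, 28168 and 29443 counts in HFD, in the order of the library numbers 1, 2 and 3 used throughout, and 17146, 10660 and 7330 counts in HTG. In FPKM, which corrects for transcript length and sequencing depth, this was 123.61, 144.5 and 154.12 in HFD and 77.71, 41.72 and 51.54 in HTG. Every HTG library was below every HFD library in both CPM and FPKM. The mean was 386 ± 52.7 CPM in HFD and 162 ± 55.7 CPM in HTG (SD, n = 3 each), or 2.38-fold lower in HTG, with a log2 fold change of -1.25 (SE 0.28, 95% interval -1.90 to -0.61). The adjusted p was 0.0612 by edgeR's quasi-likelihood test. Without HTG library 1, which held the highest HTG level, the log2 fold change was -1.58 with an adjusted p of 0.0420, and the unadjusted p stayed under 0.05 with each of the 6 libraries left out. Hspd1-ps3, a pseudogene row with 1.07% to 2.20% of the counts of Hspd1, had a log2 fold change of -1.28, and reads shared between these rows cannot be told apart.

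Hspe1 had 3394, 3988 and 3808 counts in HFD and 5024, 5272 and 2606 in HTG, where library 3 was also the shallowest. Its FPKM were 33.9, 36.66 and 35.73 in HFD and 40.8, 36.98 and 32.84 in HTG. In FPKM, HTG libraries 1 and 3 held the highest and the lowest value of the 6. The mean was 54.2 ± 5.09 CPM in HFD and 58.0 ± 5.67 CPM in HTG (n = 3 each), a log2 fold change of 0.10 (SE 0.17, 95% interval -0.28 to 0.48, edgeR, adjusted p = 0.750). That interval leaves room for a modest difference in either direction, but does not reach the estimate for Hspd1. Without HTG library 1 the log2 fold change of Hspe1 was -0.027.

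Dividing Hspd1 by Hspe1 within each library gives a value that library scaling does not touch. The ratio of their FPKM was 3.65, 3.94 and 4.31 in HFD and 1.90, 1.13 and 1.57 in HTG. The groups did not overlap, with means of 3.97 ± 0.334 and 1.53 ± 0.389 and a 2.64-fold lower ratio in HTG. An exact two-sided permutation test gave p = 0.1, the smallest p that 3 libraries against 3 can reach, and this ratio was chosen after the values were seen. With each library left out, the log2 difference of the ratio lay between -1.57 and -1.19.

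The mitochondrial HSP70 gene Hspa9, which pulls proteins through the inner membrane and hands them to the chaperonin, was low in the same libraries as Hspd1. It had 475 ± 65.1 CPM in HFD and 202 ± 70.9 CPM in HTG (n = 3 each), with a log2 fold change of -1.23 (SE 0.28, edgeR, adjusted p = 0.0613). The ratio of Hspd1 to Hspa9 in FPKM was between 1.32 and 1.33 in the HFD libraries. In the HTG libraries it was 1.28, 1.23 and 1.42, so that it overlapped between the groups (exact permutation p = 0.8).

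**Figure D2:**
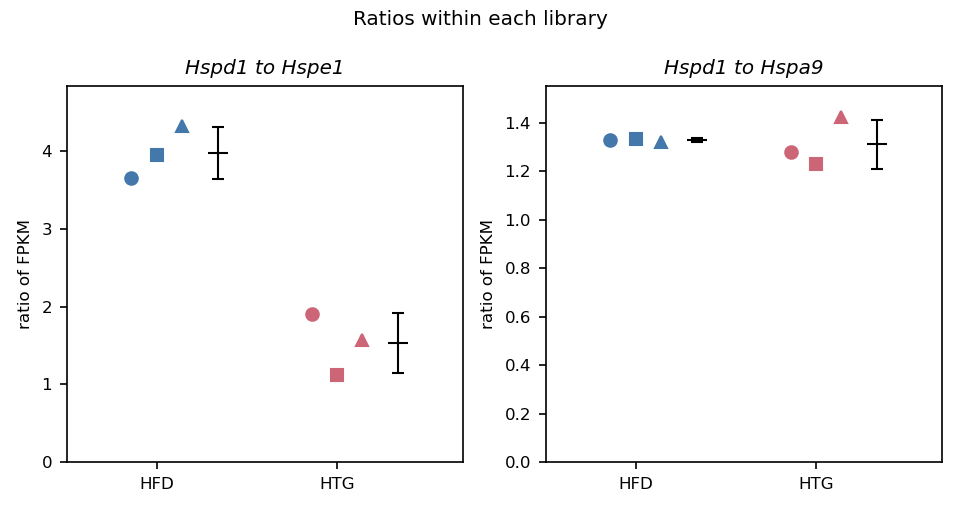
Ratio of FPKM within each library (vertical axes, linear and starting at 0) for Hspd1 to Hspe1 on the left and Hspd1 to Hspa9 on the right, with symbols for library numbers 1 (circle), 2 (square) and 3 (triangle) and black bars for mean ± SD of 3 libraries. The first ratio is 3.97 ± 0.334 in HFD and 1.53 ± 0.389 in HTG with no overlap, and the second is 1.33 ± 0.00810 in HFD and 1.31 ± 0.102 in HTG with overlap.

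Among the cytosolic HSP70 genes, Hspa8 encodes the constitutive HSC70, and Hspa1a and Hspa1b encode the near-identical inducible HSP70. Hspa8 (ENSMUSG00000015656, chr9:40712280-40721383, plus strand) had 309.95, 361.84 and 317.86 FPKM in HFD and 274.34, 214.35 and 260.88 FPKM in HTG. All 3 HTG libraries were below the lowest HFD library. Nevertheless the difference was within the error of the test, with 1476 ± 215 CPM in HFD and 1155 ± 211 CPM in HTG (n = 3 each), a log2 fold change of -0.35 (SE 0.24, 95% interval -0.90 to 0.19) and an adjusted p of 0.397. It was -0.23 without HFD library 2 and -0.21 without HTG library 2. It was the most abundant of the 10 per transcript length, with 53.6% to 57.5% of their summed FPKM in HFD and 57.7% to 64.9% in HTG. Among these 6 shares, every HTG library was above every HFD library, but the sum includes Hspd1, the second most abundant of the 10, which was lower in HTG.

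The inducible genes were scarce. Hspa1b (ENSMUSG00000090877, chr17:35175412-35178214, minus strand) had 709, 1415 and 658 counts in HFD and 847, 418 and 239 counts in HTG, or 3.72, 6.84 and 3.25 FPKM and 3.62, 1.54 and 1.58 FPKM. HFD library 2 stood above the other HFD libraries, and HTG library 1 lay within the HFD range. The means were 13.6 ± 6.63 and 6.75 ± 3.59 CPM (n = 3 each), with a log2 fold change of -1.01 (SE 0.43, edgeR, adjusted p = 0.197). Without HFD library 2 the log2 fold change was -0.54, without HTG library 2 it was -0.76 and without HTG library 3 it was -0.83, each with an unadjusted p above 0.05, whereas it was -1.58 without HTG library 1.

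Hspa1a (ENSMUSG00000091971) lies 9951 bases away on the same strand, at chr17:35188166-35191132. It had 206, 413 and 267 counts in HFD and 290, 191 and 122 counts in HTG, with a log2 fold change of -0.64 (SE 0.37, edgeR, adjusted p = 0.320). Without HTG library 1 it was -0.96, with an unadjusted p under 0.05, and it was -0.29 without HFD library 2 and -0.44 without HTG library 2, with p above 0.05. The counts of both copies are uncertain, since reads of one can be assigned to the other. Their summed CPM was 13.4, 27.4 and 12.9 in HFD and 14.6, 6.23 and 7.71 in HTG, where HTG library 1 again fell inside the HFD range. The FPKM ratio of Hspa1b to Hspa1a was 3.30 ± 0.584 in HFD and 2.50 ± 0.528 in HTG, and overlapped between the groups (exact permutation p = 0.2).

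The partners of HSP70 were lower in 2 of the 3 HTG libraries and at the HFD level in the other. Hsph1 (ENSMUSG00000029657, chr5:149537752-149559841, minus strand), a nucleotide exchange factor that also holds unfolded proteins, had 5.73, 7.32 and 7.09 FPKM in HFD and 5.98, 2.44 and 3.43 FPKM in HTG. Its mean was 50.8 ± 8.72 CPM in HFD and 30.9 ± 14.7 CPM in HTG (n = 3 each), a log2 fold change of -0.71 (SE 0.33, edgeR, adjusted p = 0.226). Without HTG library 1 the log2 fold change was -1.18 with an adjusted p of 0.0574, and without HTG library 2 it was -0.43 (adjusted p = 0.474). Dnajb1 (ENSMUSG00000005483, chr8:84334822-84339282, plus strand), the HSP40 that delivers substrates and stimulates ATP hydrolysis, had 6.65, 6.41 and 5.51 FPKM in HFD and 6.66, 4.17 and 3.98 FPKM in HTG. Its log2 fold change was -0.28 (SE 0.23, edgeR, adjusted p = 0.488), and -0.61 without HTG library 1 (adjusted p = 0.107, unadjusted p under 0.05). It was -0.13 without HTG library 2 and -0.18 without HTG library 3, with adjusted p-values of 0.827 and 0.757.

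Bag3 (ENSMUSG00000030847, chr7:128125340-128148705, plus strand) joins HSP70 to selective autophagy of its clients. It had 1917, 2557 and 2385 counts in HFD and 2305, 1884 and 1010 counts in HTG. In FPKM it had 11.02, 13.52 and 12.87 in HFD and 10.77, 7.6 and 7.32 in HTG, so that the groups were apart in FPKM, if narrowly, but overlapped in CPM. The mean was 33.2 ± 5.10 CPM in HFD and 23.5 ± 5.42 CPM in HTG (n = 3 each), a log2 fold change of -0.50 (SE 0.21, 95% interval -0.98 to -0.020, edgeR, adjusted p = 0.187). Leaving out HFD library 2, HFD library 3, HTG library 2 or HTG library 3 took the unadjusted p above 0.05, with log2 fold changes of -0.39, -0.51, -0.38 and -0.43.

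Hsp90aa1 (ENSMUSG00000021270, chr12:110657039-110669162, minus strand) encodes the inducible HSP90, which matures kinases and steroid receptors. It had 26.96, 37.39 and 50.92 FPKM in HFD and 32.25, 17 and 24.93 FPKM in HTG, and the groups overlapped. Its log2 fold change was -0.58 (SE 0.32, edgeR, adjusted p = 0.307). It was -0.80 without HFD library 1 and -0.85 without HTG library 1, with unadjusted edgeR p-values under 0.05 and adjusted p-values of 0.213 and 0.175. It was -0.33 without HTG library 2 and -0.36 without HFD library 3, with adjusted p-values of 0.622 and 0.592. The constitutive HSP90 gene Hsp90ab1 was the more abundant, and the FPKM ratio of Hsp90aa1 to Hsp90ab1 was 0.153 ± 0.0383 in HFD and 0.180 ± 0.0301 in HTG (n = 3 each, overlapping, exact permutation p = 0.5).

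Hspb1 (ENSMUSG00000004951, chr5:135916773-135918417, plus strand), encoding the small heat shock protein HSP27, which holds unfolded proteins without ATP, was the most variable within a group. It had 1526, 1002 and 293 counts in HFD and 1889, 1564 and 824 counts in HTG. HFD library 3 stood far below the others, at 3.91 FPKM against 13.15 to 21.93 FPKM in the other 5 libraries. The log2 fold change was 0.48 with a wide interval from -0.68 to 1.63 (SE 0.50, edgeR, adjusted p = 0.591). It was 1.01 without HFD library 1, 0.039 without HFD library 3 and 0.23 without HTG library 1 (adjusted p-values of 0.292, 0.950 and 0.850). It was -0.21 without HFD library 3 and HTG library 1 together, an alternative chosen after the values were seen.

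**Figure D3:**
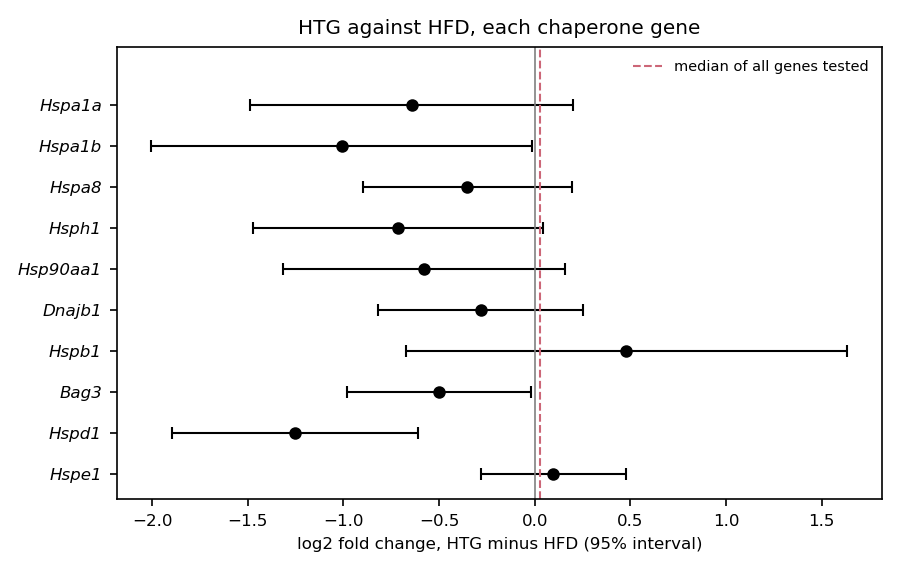
Log2 fold change of each chaperone gene between HTG and HFD (horizontal axis) with its 95% interval from edgeR's quasi-likelihood fit of 3 against 3 libraries, and a dashed line at 0.025, the median of all genes tested. The intervals of Hspd1, Hspa1b and Bag3 lie below 0, that of Hspd1 from -1.90 to -0.61, and the intervals of the other genes include 0.

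Per transcript length the order of the 10 genes was led by Hspa8 and then Hspd1 in both groups. In HFD the mean FPKM was 330 for Hspa8, 141 for Hspd1, 38.4 for Hsp90aa1, 35.4 for Hspe1, 12.9 for Hspb1, 12.5 for Bag3, 6.71 for Hsph1, 6.19 for Dnajb1, 4.60 for Hspa1b and 1.38 for Hspa1a. The libraries of neighbours overlapped for Hsp90aa1 and Hspe1, for Hspb1 and Bag3, for Hsph1 and Dnajb1, and for Dnajb1 and Hspa1b, so these neighbours did not differ beyond their spread. In HTG the mean FPKM was 250 for Hspa8, 57.0 for Hspd1, 36.9 for Hspe1 and 24.7 for Hsp90aa1, and Hspd1, Hspe1 and Hsp90aa1 stood apart from each other in all 3 libraries. In both groups Hspa1a came last, apart from all the others.

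The order of libraries within a group was similar for most of the genes. In CPM, HFD library 2 had the highest HFD level in 8 of the 10 genes and HFD library 1 the lowest in 7, and in FPKM these counts were 6 and 7. HTG library 1 had the highest HTG level in 9 genes in CPM and in all 10 in FPKM. HTG library 2 had the lowest HTG level in all 10 genes in CPM but in 6 in FPKM, where HTG library 3 was lowest in the other 4. Ranks of the libraries over all genes were not computed, so this order cannot be called particular to the 10 genes. HTG libraries 2 and 3 were both below every HFD library in CPM in 7 of the 10 genes, against 22.5% of all genes tested, and HTG library 1 was below every HFD library in 2, Hspd1 and Hspa8, against 27.2%. The split of HTG library 1 from libraries 2 and 3 was chosen after the values were seen, so these counts only describe it. In FPKM the counts were 8 and 3, with Bag3 as the third gene of HTG library 1. The shares over all genes were not computed in FPKM, so these counts have no background beside them. The 10 genes summed to 1937, 2529 and 2161 CPM in HFD and to 1823, 1213 and 1704 CPM in HTG, so all HTG sums were below all HFD sums (log2 difference -0.50, exact permutation p = 0.1). With single libraries left out the log2 difference ran from -0.61 to -0.32, the latter without HTG library 2. Without Hspa8 the sum was 733 ± 109 CPM in HFD and 425 ± 129 CPM in HTG (n = 3 each). The mean of Hspa8 was 1476 CPM in HFD and 1155 CPM in HTG, and that of Hspd1 was 386 and 162 CPM. The differences of both sums therefore lay mostly in these genes, described above, and say little of the others.

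By a fixed rule, the genes whose log2 CPM over the 6 libraries was most like the mean of the 10 were Nck1, an adaptor of receptor signalling, Psmd11 and Psma5, subunits of the proteasome, Nudc, an HSP90 co-chaperone, and Smap1, a regulator of membrane traffic. Among 8005 genes with a mean of at least 10 CPM, Pearson's r was 0.996 for Nck1, 0.990 for Psmd11, 0.990 for Nudc, 0.989 for Smap1 and 0.989 for Psma5. With 6 libraries that share scaling and a group difference, these values are descriptions. Log2 fold changes between HTG and HFD were -0.60 for Nck1, -0.52 for Psmd11, -0.41 for Nudc, -0.33 for Smap1 and -0.41 for Psma5, and none had an unadjusted edgeR p under 0.05.

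Of 17 other genes listed as inducible HSF1 targets, 5 were lower and 1 was higher in HTG at an unadjusted edgeR p under 0.05. The shares of all genes tested were 12.4% and 12.3%. The median log2 fold change of the 17 genes was -0.19, and not every listed gene is inducible. The lower ones included Hsp90ab1, the constitutive HSP90 gene, at 775 ± 49.2 CPM in HFD and 439 ± 111 CPM in HTG (log2 fold change -0.82, edgeR, adjusted p = 0.0910), and the HSP110-related gene Hspa4 (-0.56). They also included the HSP40 genes Dnaja1 (-0.59) and Dnajb4 (-0.46). The higher one was Hspa1l, an HSP70 gene known for its expression in testis, at 2.16 ± 0.244 CPM in HFD and 4.27 ± 0.975 CPM in HTG (0.98). The count of lower genes was 3 with HFD library 2, HFD library 3 or HTG library 3 left out, and 2 with HTG library 2 left out, and that of higher genes was 2 with HFD library 3 left out.

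None of the 4 heat shock factors and regulators had a negative log2 fold change. Hsf1, the master regulator of the heat shock response, had 1218, 1429 and 1195 counts in HFD and 1897, 2338 and 1187 counts in HTG. Its mean was 18.6 ± 2.49 CPM in HFD and 24.5 ± 0.729 CPM in HTG (n = 3 each), with a log2 fold change of 0.40 (SE 0.16, edgeR, adjusted p = 0.172). The unadjusted p, under 0.05 with all libraries, was above it with HFD library 1, HFD library 3 or any 1 of the 3 HTG libraries left out, and no gene of this group passed 0.05 with DESeq2 or limma. Hsf2, a second factor that can pair with HSF1, had a log2 fold change of 0.27 (adjusted p = 0.451), and Hsbp1, whose product binds HSF1 and restrains it, had 0.077 (adjusted p = 0.807).

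Of 14 co-chaperones of HSP70 and HSP90, 4 were lower and 1 was higher at the unadjusted threshold, against 12.4% and 12.3% of all genes. The median log2 fold change of the group was -0.16. The lower ones were Dnajb6, an HSP40 that keeps proteins from aggregating (-0.82), Dnaja2, another HSP40 (-0.77), Cdc37, which brings kinases to HSP90 (-0.70), and St13, which stabilises HSP70 on its substrate (-0.59). The higher one was Unc45a, a myosin chaperone that works with HSP90 (0.42). Without HTG library 3 the count of lower genes was 2. The count of higher genes was 0 with HFD library 1 or any 1 of the 3 HTG libraries left out, with DESeq2 and with limma, and 2 without HFD library 2 or with upper-quartile scaling, and Unc45a passed in 9 of 19 alternatives.

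In the mitochondrial group, with a median of -0.35, 4 of 10 genes were lower and 1 was higher, against 12.4% and 12.3% of all genes. Besides Hspa9, the lower ones were its HSP40 partner Dnaja3 (-0.73), its nucleotide exchange factor Grpel1 (-0.50) and the matrix protease Lonp1 (-0.48). The gene higher in HTG was Clpp, the proteolytic subunit of another matrix protease, at 37.4 ± 0.887 CPM in HFD and 57.0 ± 2.69 CPM in HTG (log2 fold change 0.61, edgeR, adjusted p = 0.0654). Leaving out HFD library 2, HTG library 2 or HTG library 3 gave 2 lower genes, and leaving out HTG library 1 gave 6.

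In the group of TRiC and prefoldin, with a median of -0.20, 4 of 14 genes were higher and 5 were lower at the unadjusted threshold. The shares of all genes were 12.3% and 12.4%. All 8 subunits of TRiC, the cytosolic chaperonin that folds actin and tubulin, had negative log2 fold changes, and 4 of them were lower at the unadjusted threshold. The named ones were Cct5 (-1.11, edgeR, adjusted p = 0.0629), Cct4 (-0.73) and Cct6a (-0.67). Of the 6 subunits of prefoldin, which hands actin and tubulin to TRiC, 4 were higher and 1 was lower. Pfdn6 had 20.0 ± 1.57 CPM in HFD and 41.4 ± 6.97 CPM in HTG (log2 fold change 1.05, edgeR, adjusted p = 0.0538), and Pfdn1 had a log2 fold change of 0.69. The remaining prefoldin subunit did not pass the threshold. The complexes were separated after the values were seen, and the difference between them was not tested. The 5 lower genes of both complexes were 3 without HFD library 2 or HTG library 2 and 2 without HTG library 3, and the 4 higher genes were 2 without HTG library 2.

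The chaperones of the endoplasmic reticulum had a positive median, 0.23, with 3 of 12 higher and 1 lower, against 12.3% and 12.4% of all genes. The higher ones were Sdf2l1, a cofactor of the reticulum's HSP70 (1.23), Pdia3, a disulphide isomerase for glycoproteins (0.77), and Calr, the soluble lectin chaperone calreticulin (0.79). The lower one was Canx, its membrane-bound counterpart calnexin (-0.79). Without HFD library 1, HFD library 2, HTG library 1 or HTG library 3 the count of higher genes was 2, and with HFD library 2, HTG library 2 or HTG library 3 left out that of lower genes was 0. Over the 6 chaperone groups, 19 of 71 genes (26.8%) were lower and 11 (15.5%) were higher at the unadjusted threshold, against 12.4% and 12.3% of all genes tested, and none passed an adjusted edgeR p of 0.05. The count of lower genes was 12 without HFD library 2, 11 without HTG library 2 and 9 without HTG library 3, and that of higher genes was 7 without HTG library 1. With limma on log2(FPKM + 0.1), 21 of 70 genes of these groups were lower and 9 were higher. The shares of the 10930 genes in that test were 19.1% and 12.9%, so the background of lower genes was larger there.

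**Figure D4:**
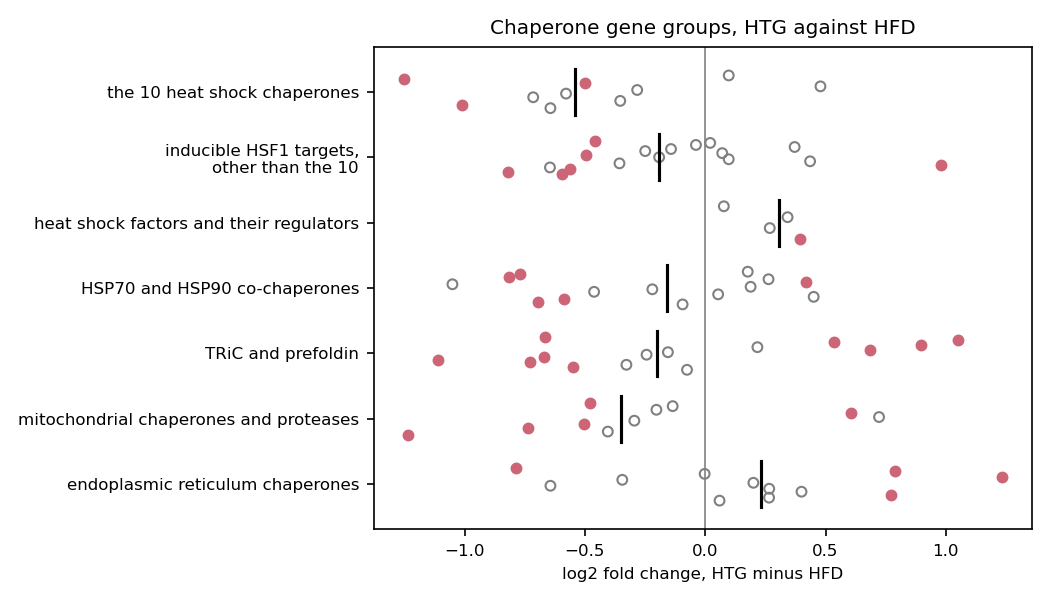
Log2 fold changes between HTG and HFD (horizontal axis) for the 10 heat shock chaperones and 6 further groups (rows), where each point is a gene, filled points have an unadjusted edgeR p under 0.05, and black bars are group medians. Medians run from -0.54 for the 10 genes to 0.23 for endoplasmic reticulum chaperones and 0.31 for the heat shock factors.

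Among 8 immediate early genes, which respond within minutes to handling and stress, 2 were lower and 1 was higher in HTG at the unadjusted threshold. The shares of all genes were 12.4% and 12.3%. Jun (-0.94) and Atf3 (-1.07) were lower and Junb (1.38) was higher, so the group had no common direction (median -0.045). Without HFD library 1 or HTG library 3 the count of lower genes was 1, without HTG library 2 it was 3, and without HTG library 1 or HTG library 3 that of higher genes was 2. Markers of other liver cells were present in both groups. The summed CPM of leukocyte and Kupffer cell markers was between 194 and 331 in HFD and between 174 and 293 in HTG, and that of stellate cell markers was between 139 and 200 and between 115 and 168. Endothelial markers summed to between 44.1 and 98.2 in HFD and between 74.9 and 116 in HTG, biliary markers to between 8.41 and 10.2 and between 10.7 and 10.9, and red cell markers to between 214 and 376 and between 233 and 448. Of exocrine pancreas markers, Ctrb1 and Pnlip were at 0 in all libraries, and the sum was between 1.98 and 2.85 CPM in HFD and between 0.899 and 4.95 CPM in HTG. Single markers with an unadjusted edgeR p under 0.05 were Cps1, the first enzyme of the urea cycle in hepatocytes (-1.62), Adgre1, a Kupffer cell receptor (-1.53), Reln of stellate cells (-0.70), Epcam (-0.95) and Sox9 (0.79) of biliary cells, and Alas2, which starts haem synthesis in red cell precursors (-0.49). The part of these cell types in the chaperone values was not tested.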

How the data were processed

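Liver RNA from 6 animals was analysed, 3 per group as labelled. The authors deposited 1 table of 2 values per gene and library. These were an estimated count, deposited as a whole number without normalisation between libraries, and FPKM, which the authors scaled by transcript length and library total. The submitters' processing notes name HISAT2, StringTie and SAMtools, without versions, and the rat build mRatBN7.2, although gene rows carry mouse identifiers. Whether counting used the strand is not given in the sources used here, so counts of overlapping or near-identical genes are uncertain. The labels do not say more of the replicates than that they are separate animals.

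Counts were scaled by TMM, filtered by filterByExpr and tested across all genes with edgeR 4.0.16 (glmQLFit, glmQLFTest) in R 4.3.3. The model held only the group, and p-values were adjusted by the method of Benjamini and Hochberg. Sums and ratios were compared by exact two-sided permutation tests in scipy 1.17.1, and figures were drawn with matplotlib 3.10.9. The design had assumed plain counts, and the estimated ones entered the test unchanged. The script was tested on simulated data. Intervals and limits cover counting error only where they concern single counts.

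The 10 genes and the lists were chosen with earlier results of these data known. Genes named from lists were those with an unadjusted p under 0.05, at most the 5 with the smallest p in each list, with Hsf1, Hsf2 and Hsbp1 always named. The 5 genes most like the 10 were taken by Pearson's r among genes with a mean of at least 10 CPM. Cpa1, a listed marker, had no row under that symbol and so was not analysed here. Alternatives were DESeq2 1.42.0, other scalings and filters, limma 3.58.1 on log2(FPKM + 0.1) or log2(FPKM + 1), counts divided by 4, the replicate number as a block, and each library left out.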

Additional observations from a re-analysis of the deposited data

How the results depend on the processing

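Over 19 alternatives, Hspd1 kept a negative log2 fold change, between -1.58 and -1.04, with an unadjusted p under 0.05 in all 19. The number of members at an adjusted p under 0.05 was 0 in the edgeR test and 1, Hspd1, with DESeq2 (adjusted p = 0.000435), with at least 10 counts in every library, with limma on log2(FPKM + 0.1) or log2(FPKM + 1), and with counts divided by 4, and leaving out libraries it ranged from 0 to 1. The adjusted p of Hspd1 ran from 0.000435 to 0.195. The number of members lower at an unadjusted p under 0.05 ranged from 1 to 7 when a library was left out, against 8.09% to 14.8% of all genes. It was 5, against 13.7% of all genes, without HFD library 3 and HTG library 1 together, an alternative added after seeing the data. With the replicate number as a block it was 1, Hspd1, against 10.5% of all genes. The unadjusted p of Hspa1b and Bag3 was then above 0.05, while their log2 fold changes were -1.02 and -0.52, against -1.01 and -0.50 without the block. Deviations of same-numbered libraries had r of -0.0779, -0.0731 and 0.101, and not every library correlated best with its own number. With 3 libraries a group, these values cannot decide whether the numbers pair the samples. With a library left out, the log2 fold change of Hspe1 ranged from -0.027, without HTG library 1, to 0.17, and it was -0.046 without HFD library 3 and HTG library 1, and that of Hspb1 was -0.21 in the latter. The median of the members stayed between -0.80 and -0.34. Over all genes, 2 passed an adjusted p of 0.05 with edgeR, 2401 with DESeq2, 684 with at least 10 counts, 822 with counts divided by 4, 878 and 884 with limma on FPKM, 653 without HTG library 1, 162 without a filter, 14 with TMM without mitochondrial mRNAs, 7 without HFD library 2, and 0 with the block, with unfiltered limma, when HFD library 3, HTG library 2 or HTG library 3 was left out, and without HFD library 3 and HTG library 1 together. The cause was not tested. With 3 libraries a group, the intervals of 7 members span 0. Hspa1a and Hspa1b rest on the fewest counts.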
